A study of Mus musculus with 15 samples.

Results

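Ier2, Ier3, Ier5, Ier5l, Btg1, Btg2, Nr4a1 and Arc are immediate early genes that encode neither AP-1 nor Egr transcription factors. They were picked by name, and each was matched through its Ensembl mouse gene identifier to 1 row of the count table. These 8 rows were part of 52636 in all. The filter on low counts left 13451 genes for testing, and all 8 passed it, Ier3 only through its 2h libraries. Their RNA levels were followed in mouse epiblast-like cells (EpiLCs), a culture that resembles the early post-implantation epiblast, while the RAF-MEK-ERK kinase pathway was switched on and then blocked. The cells were of the line CRAFR26, whose c-RAF kinase construct becomes active when 4-hydroxytamoxifen (4OHT) is added, and they passed through an intermediate state, named RSC in the labels, for 2 passages and then through 48 h of EpiLC culture.

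Every group received bFGF (12 ng/ml), Activin A (20 ng/ml) and the tankyrase inhibitor XAV939 (1 µM) in N2B27 medium, and every group, the uninduced one included, received the FGF receptor inhibitor PD17 (PD173074, 250 nM) for 2 h. The group 0h had no 4OHT (3 samples). The groups 2h and 4h had 250 nM 4OHT for 2 h and for 4 h (4 samples each). The labels name no vehicle at 0h, so against 0h ERK activation and any other effect of adding 4OHT cannot be told apart. The group rev had 4OHT for 4 h and then a MEK inhibitor for 2 h (4 samples), so that in rev the inhibitor and the 2 further hours of culture cannot be told apart. The line was represented by 2 clones, numbered 4 and 8, each with 2 replicates in a group, except that 0h held 1 of clone 4 because the authors discarded a sample in quality control. The labels do not say whether the replicates of a clone were separate cultures, so p-values measure the spread between these samples, which may be in part technical.

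Immediate early genes are transcribed within minutes of a stimulus without new protein synthesis, and their transcripts are short-lived. ERK reaches many of them through ternary complex factors bound beside the serum response factor SRF, and through kinases that phosphorylate CREB. Several of the Ier genes encode nuclear proteins, and several Ier proteins bind the phosphatase PP2A. Btg1 and Btg2 encode antiproliferative proteins that recruit the CCR4-NOT deadenylase to mRNA, Nr4a1 encodes the orphan nuclear receptor Nur77, and Arc encodes a capsid-like protein best known from synapses of active neurons.

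In GRCm38 (GENCODE M21) the 8 protein-coding genes overlapped no other annotated gene, on either strand. Ier2 (chr8:84661331-84662852, minus strand), Ier5 (chr1:155096361-155099636, minus strand) and Ier5l (chr2:30471537-30474219, minus strand) each have 1 exon and no intron. Ier3 (chr17:35821684-35822923, plus strand), Btg1 (chr10:96617006-96622809, plus strand) and Btg2 (chr1:134075170-134079120, minus strand) have 2 exons. Arc (chr15:74669083-74672570, minus strand) has 3 exons, and the 4 annotated transcripts of Nr4a1 (chr15:101254269-101274795, plus strand) have between 2 and 8.

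The RefSeq promoter table (GRCm38.p6, 250 bases before to 50 bases after each start) held 6 of the genes: Ier3, Ier5, Ier5l, Btg1, Btg2 and Nr4a1. The stretches below are shown because they separate these genes into those with and those without the letters TGACG, the core of the CREB binding element. Capitals mark each TGACG, or CGTCA where the match is on the other strand. The Ier5 stretch ends at the base before its start and holds no match.
Btg1, chr10:96616811-96616930, plus strand: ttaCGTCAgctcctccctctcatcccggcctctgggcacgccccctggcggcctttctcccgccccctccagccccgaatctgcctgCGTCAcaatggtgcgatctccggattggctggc
Btg2, chr1:134079211-134079330, minus strand: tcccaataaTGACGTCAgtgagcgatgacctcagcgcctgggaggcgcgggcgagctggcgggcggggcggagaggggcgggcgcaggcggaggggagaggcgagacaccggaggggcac
Nr4a1, chr15:101266606-101266845, plus strand: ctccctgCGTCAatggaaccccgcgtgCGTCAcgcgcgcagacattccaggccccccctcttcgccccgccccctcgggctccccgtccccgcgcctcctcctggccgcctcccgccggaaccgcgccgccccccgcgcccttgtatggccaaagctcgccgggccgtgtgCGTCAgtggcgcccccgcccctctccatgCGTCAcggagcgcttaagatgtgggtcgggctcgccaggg
Ier5, chr1:155099637-155099756, minus strand: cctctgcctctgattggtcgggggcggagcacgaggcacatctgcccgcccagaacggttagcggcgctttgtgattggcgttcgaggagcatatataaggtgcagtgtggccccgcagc
Btg2 carried its 2 overlapping matches as the palindrome TGACGTCA, 166 bases before the start. Btg1 had 2 matches and Nr4a1 had 4, the nearest of them 40 bases before the start. TGACG, searched on both strands and counted also inside TGACGTCA, was in 3 of the 6 windows and in 20.8% of all 32851 promoters, and TGACGTCA was in 1 of the 6 and in 1.79%. The windows of Ier3, Ier5 and Ier5l held none. The CArG box bound by SRF (CC, then 6 bases that are each A or T, then GG) was in none of the 6 windows and in 1.63% of all promoters. GGAA, the core of ETS factor sites, was in all 6 and in 96% of all promoters, and the GC box GGGCGG was in all 6 and in 35.7%. A match describes letters only, and the motifs were chosen with results of these data known.

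Total counts ran from 8667880 to 13004556 in the 0h, 2h and rev libraries and from 1552022 to 6658950 in the 4h libraries. Library sizes after the scaling described below ran from 7093297 to 18668821 and from 1636999 to 4392826, in the same order. Outside the mitochondrial and the 20 most abundant genes, counts ran from 2310615 to 6237654 and from 525094 to 1456849. Mitochondrial genes took 7.21% to 12.4% of the counts at 4h and 2.67% to 6.98% in the other groups, and 3 counts, taken as the floor of detection, equalled up to 1.83 CPM at 4h and at most 0.423 CPM elsewhere. All 7 epiblast markers were detected, Pou5f1 and Dnmt3b among them, with a summed level of 1400 to 1720 CPM at 0h, 1230 to 1500 at 2h, 860 to 890 at 4h and 1120 to 1240 in rev. Its members did not all move one way, since mean Dnmt3b went from 935 CPM at 0h to 416 CPM at 4h while Otx2 went from 12.3 to 25.1 CPM and Utf1 from 113 to 118 CPM. The 8 markers of naive embryonic stem cells summed to 62.7 to 216 CPM at 4h and to 20.9 to 39.1 CPM in the other groups. Mean Klf4 was 3.23 CPM at 2h and 2.57 CPM at 4h, while every other marker of that list had its highest mean at 4h. Esrrb, for one, went from 3.29 CPM at 0h to 42.9 CPM at 4h. Klf2 is also in the list of other immediate early genes below. Depth, mitochondrial share and the summed levels of these markers therefore moved with the 4h group, and their part in the 4h values of the 8 genes was not tested. Levels below are CPM, a count divided by the size of its library after scaling with the trimmed mean of M-values (TMM), so each change is relative to the bulk of the tested genes. In bulk RNA, fewer cells expressing a gene and less RNA per cell cannot be told apart.

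**Figure D1:**
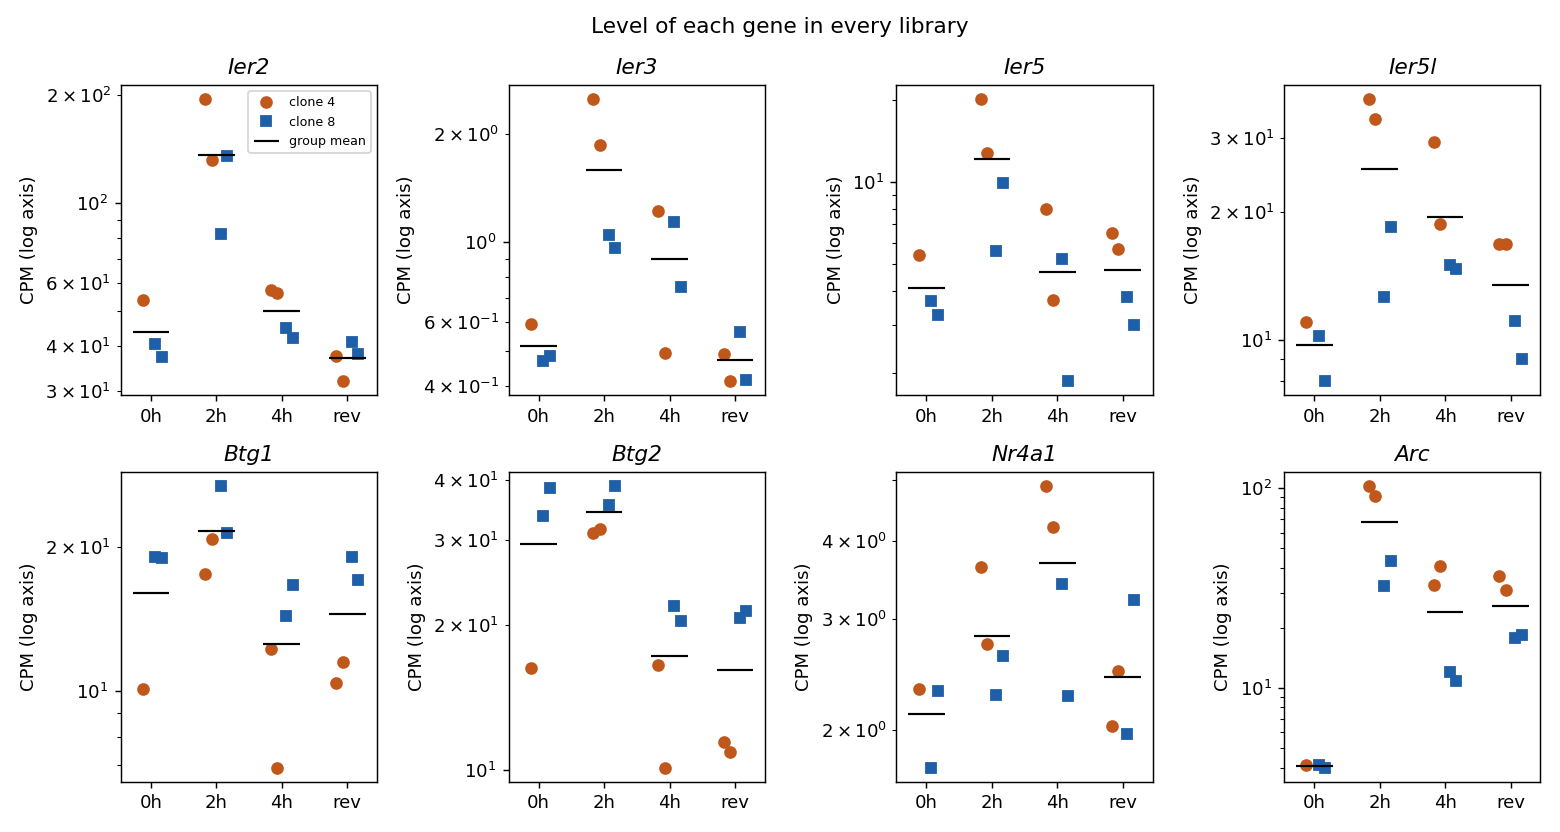
Level of each of the 8 genes in every library (CPM, log axis, scaled separately for each gene) in the groups 0h, 2h, 4h and rev; orange circles are clone 4, blue squares are clone 8 and the black line is the group mean. Arc lies at 4.00 to 4.14 CPM in the 3 0h libraries and at 32.4 CPM or more in the 4 2h libraries, whereas the Btg2 values of the same groups overlap.

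After 2 h of induction 6 of the 8 genes were called higher than at 0h, a comparison that asks for the early response to ERK. They were Arc, all 4 Ier genes and Btg1, and none fell. Ier3 passed the filter on low counts only through its 2h libraries. Its part in this count and in the median below is therefore not independent of its rise. The 8 genes were chosen with earlier results of these data known. Across all tested genes 6.45% were called in 2h vs 0h, with 3.98% called higher and 2.46% lower. The median log2 fold change of the 8 genes was 1.25, against 0.01 over all tested genes.

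Arc held 4.10 CPM in the 0h library of clone 4 and 4.14 and 4.00 CPM in those of clone 8. After 2 h it stood at 103 and 91.6 CPM in clone 4 and at 32.4 and 43.4 CPM in clone 8. The lowest 2h library was far above every 0h library, and the 2h values split by clone while the 0h values did not. Arc rose 12.8-fold (log2 fold change 3.67, SE 0.28, adjusted p = 1.17e-06). Because Arc is best known from neurons, 5 neural markers were read beside it. Their summed level was 80.4 to 83.8 CPM at 0h and 65.3 to 94.9 CPM at 2h, so it overlapped between these groups, and it was 68.2 to 79.7 CPM at 4h and 64.3 to 75.5 CPM in rev. Nes and Tubb3 made up most of that sum at 0h and 2h. Mean Sox1 was 2.96 CPM at 0h and 2.46 CPM after 2 h, then 32.1 CPM after 4 h and 6.43 CPM in rev. None of the 5 was at 0 in every library, and the part of such cells in the Arc values was not tested.

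Ier2, a nuclear regulator of early response transcription, was the most abundant of the genes. It held 53.8, 40.6 and 37.3 CPM at 0h (clone 4, then both of clone 8) and 195, 132, 82.2 and 135 CPM at 2h (clone 4 replicates 1 and 2, then clone 8 replicates 1 and 2, the order used for all values below). All 2h libraries lay above all 0h libraries. The rise was 2.97-fold (log2 fold change 1.57, SE 0.19, adjusted p = 8.27e-05). Ier5, which binds PP2A and the heat shock factor HSF1, went from 5.40, 3.68 and 3.27 CPM to 20.1, 12.8, 5.58 and 9.96 CPM. The groups did not overlap, although the lowest 2h library was near the highest 0h library, and these came from different clones. Its log2 fold change was 1.36 (SE 0.27, adjusted p = 0.00338).

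Ier5l, a paralog of Ier5, held 11, 10.2 and 8.00 CPM at 0h and 37.0, 33.2, 12.6 and 18.5 CPM at 2h. Every 2h library was above every 0h library, with clone 4 highest. The log2 fold change was 1.14 (SE 0.19, adjusted p = 0.000496). Ier3, which acts in cell survival and modulates ERK dephosphorylation, was scarce, with 11, 7 and 4 counts at 0h and 22, 21, 12 and 18 counts at 2h. In CPM it ran from 0.468 to 0.594 at 0h and from 0.964 to 2.5 at 2h, again without overlap. Ier3 passed the filter on low counts only through these 2h libraries, so its entry into the test and its 2h rise are not independent. With only 4h and rev fitted, 7 of the 8 genes passed, without Ier3. In 2h vs 0h the log2 fold change of Ier3 was 1.47 (SE 0.37, adjusted p = 0.0163). In the 7 fits in which 1 library of either group was omitted it ran from 1.26 to 1.63, and 2 of them lost the call, with the largest adjusted p (0.175) without 0h clone 4 replicate 1. The 4 Ier genes and Arc were the 5 genes whose groups did not overlap, and 10.1% of all tested genes lay apart in this direction.

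Btg1 held 10.1, 19.0 and 18.9 CPM at 0h and 17.5, 20.7, 26.8 and 21.4 CPM at 2h, so the groups overlapped and clone 8 was the higher clone at 0h. Its log2 fold change of 0.59 (SE 0.16, adjusted p = 0.0315) was the smallest of the called changes. The call was lost in 6 of the 7 fits without one library, with adjusted p up to 0.255 without 0h clone 4 replicate 1, and with the replicate block (adjusted p = 0.0533). Btg2, a p53 target with the same deadenylase-binding domain, held 16.3, 33.6 and 38.4 CPM at 0h and 31.1, 31.6, 35.4 and 38.9 CPM at 2h. Only the single clone 4 library at 0h was below the 2h range. The difference of 0.42 (95% interval 0.09 to 0.76, adjusted p = 0.127) was not called.

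Nr4a1 was at 2.32, 1.74 and 2.30 CPM at 0h and at 3.63, 2.74, 2.27 and 2.62 CPM at 2h, from 19 to 49 counts per library. The groups overlapped, and the log2 difference of 0.37 (95% interval -0.15 to 0.90, adjusted p = 0.419) was not called. The 3 genes with TGACG in their promoter window had log2 differences of 0.37 to 0.59 at 2h. The 3 whose window lacked it had 1.14 to 1.47, a side-by-side description of 6 genes with no test. TGACG was chosen with results of these data known, and Ier2 (1.57) and Arc (3.67) had no window to search. The 1.47 is that of Ier3, which passed the filter on low counts only through its 2h libraries. On total count scaling, which sets the median of all tested genes at -0.18 in 2h vs 0h, all 8 differences stayed above 0 and Arc, Ier2 and Ier5 were called, but Ier3, Ier5l and Btg1 were not (adjusted p 0.229, 0.0886 and 0.752). Without the clone term Ier5, Ier5l and Btg1 were not called (adjusted p 0.0562, 0.0545 and 0.448).

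**Figure D2:**
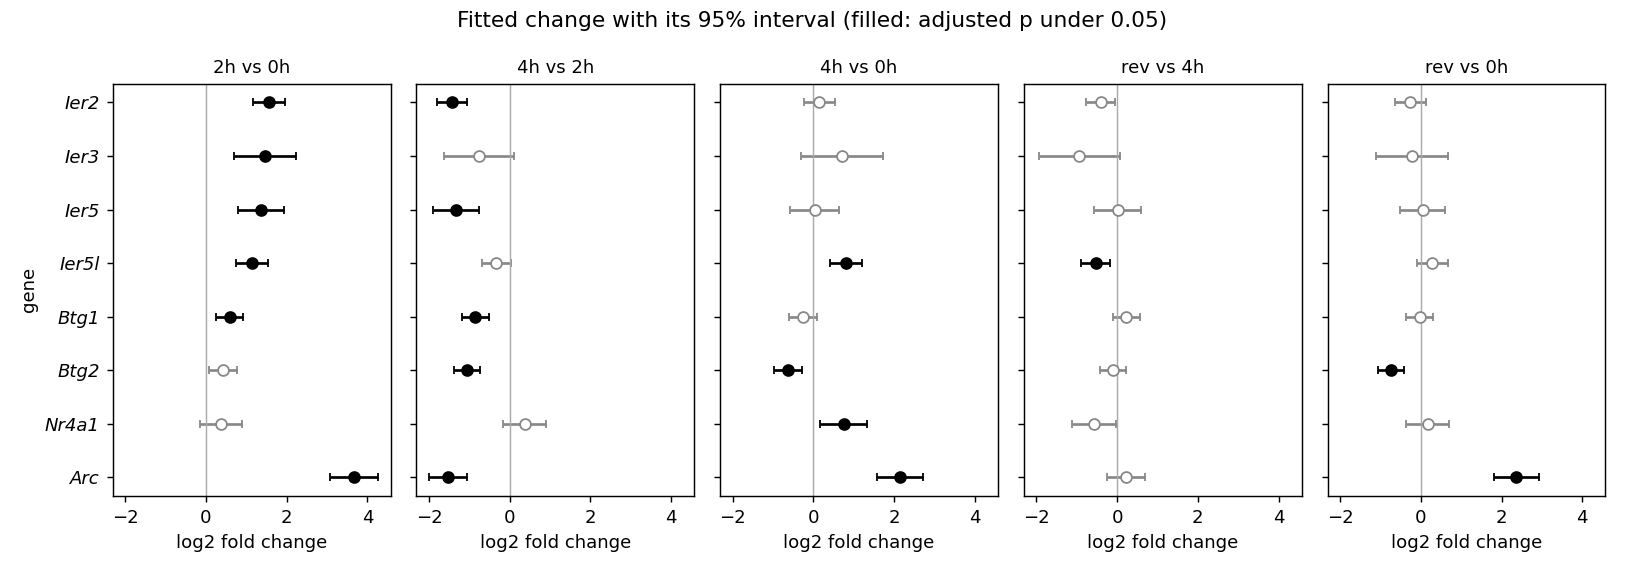
Fitted log2 fold change of each gene with its 95% interval in the 5 comparisons of groups named above the panels; filled points have an adjusted p under 0.05 and open points do not. In 4h vs 2h the filled points of Ier2, Ier5, Btg1, Btg2 and Arc lie to the left of 0 with changes of -0.85 to -1.52, and the open point of Nr4a1 is the only one to the right.

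From 2 h to 4 h of induction 5 of the 8 genes fell: Ier2, Ier5, Btg1, Btg2 and Arc. No gene rose. Across all tested genes 38.9% were called in 4h vs 2h, with 19.7% called higher and 19.2% lower. The median log2 fold change of the 8 genes was -0.96, against -0.01 over all tested genes.

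Ier2 held 57.4, 56.3, 44.8 and 42.2 CPM at 4h, each below the lowest 2h library. It fell by 1.43 on the log2 scale (SE 0.17, adjusted p = 7.15e-06). Arc stood at 33.0 and 40.7 CPM in clone 4 and at 12.1 and 10.9 CPM in clone 8. Within each clone every 4h library was below every 2h library, but across clones the groups overlapped, because clone 4 at 4h reached the range of clone 8 at 2h. Arc fell by 1.52 (SE 0.22, adjusted p = 8.67e-05). Ier5 held 7.94, 3.70, 5.24 and 1.88 CPM at 4h, with 5 to 23 counts per library, and fell by 1.33 (SE 0.27, adjusted p = 0.000571).

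Both Btg genes fell between these times. Btg1 held 12.2, 6.91, 14.3 and 16.6 CPM at 4h, all below the 2h libraries, and fell by 0.85 (SE 0.16, adjusted p = 0.000223). Btg2 held 16.5, 10.1, 21.9 and 20.4 CPM, also all below 2h, and fell by 1.06 (SE 0.16, adjusted p = 1.59e-05). Ier2, Btg1 and Btg2 were the 3 genes that lay apart from 2h, and 13.3% of all tested genes did so in this direction. All 5 falls kept their call in each of the 8 fits without one library.

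Ier3, Ier5l and Nr4a1 were not called in 4h vs 2h. Ier5l held 29.3, 18.8, 15 and 14.7 CPM at 4h, and its log2 difference was -0.33 (95% interval -0.69 to 0.02, adjusted p = 0.131). Ier3 held 2, 2, 5 and 2 counts at 4h, so 3 of the 4 libraries were at or under the floor of 3 counts, and its difference was -0.76 (95% interval -1.62 to 0.10, adjusted p = 0.15). Nr4a1 held 4.89, 4.2, 3.41 and 2.26 CPM, from 6 to 17 counts, with a difference of 0.37 (95% interval -0.16 to 0.91, adjusted p = 0.263) that turned to -0.21 on total count scaling. On that scaling, where the median of all tested genes was -0.57, Ier3 (-1.34, adjusted p = 0.0397) and Ier5l (-0.82, adjusted p = 0.0148) were called lower, which made 7 of the 8 genes. Of all 13451 tested genes 5356 were called on that scaling, and 9.09% of those calls were higher, so calls as a whole were mostly lower. Ier5l was also called without the filter on low counts (adjusted p = 0.0158) and without 2h clone 8 replicate 1 (adjusted p = 0.0208). Ier2, Ier5, Btg1 and Arc, 4 of the 8 genes, were called higher over the first step (2h vs 0h) and lower over the next (4h vs 2h), as were 1.40% of all tested genes. Both comparisons share the 2h libraries.

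Against 0h, Arc, Ier5l and Nr4a1 were higher after 4 h and Btg2 was lower. Of all tested genes 39.4% were called in 4h vs 0h, with 20.5% higher and 18.9% lower, so 4 of 8 is near the background. Arc was 4.45-fold above 0h (log2 fold change 2.15, SE 0.27, adjusted p = 2.11e-05), and each of its 4h libraries exceeded each 0h library. Ier5l was 1.75-fold above 0h (log2 fold change 0.81, SE 0.19, adjusted p = 0.00201), also without overlap. Groups lay apart upward in 18.2% of all tested genes. Btg2 fell by 0.64 (SE 0.17, adjusted p = 0.00426), with its clone 4 0h library inside the 4h range.

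The rise of Nr4a1 (log2 fold change 0.75, SE 0.28, adjusted p = 0.039) rested on overlapping groups. In the 7 fits without one library it ran from 0.65 to 0.88, and 6 of them lost the call, with the largest adjusted p (0.128) without 0h clone 8 replicate 1. DESeq2 gave 0.74 and no call (adjusted p = 0.0615). On total count scaling, where the median of all tested genes was -0.73 in 4h vs 0h, Nr4a1 stood at -0.02 and Ier5l at 0.11 (adjusted p = 0.785), while Arc kept its call. Without the clone term Ier5l and Btg2 were not called (adjusted p 0.0561 and 0.0811). Ier2 (0.14, 95% interval -0.24 to 0.53), Ier5 (0.03, -0.59 to 0.65), Ier3 (0.71, -0.30 to 1.71) and Btg1 (-0.26, -0.61 to 0.09) were not called, and on that scaling Ier2, Ier5 and Ier3 turned negative and Btg1 was called lower (-0.97, adjusted p = 0.00649).

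The rev group asks which changes revert once MEK is blocked. After 2 h with the inhibitor, Ier5l alone of the 8 genes passed the test against 4h, where 30.8% of all tested genes were called and 15.6% called lower. Ier5l held 16.8, 16.8, 11.1 and 9.03 CPM in rev and fell by 0.53 (SE 0.17, adjusted p = 0.025). Its groups overlapped across the clones. The call was lost in 6 of the 8 fits without one library, with the largest adjusted p (0.0912) without 4h clone 4 replicate 1, and on total count scaling (log2 difference -0.16, adjusted p = 0.698), where the median of all tested genes was 0.45.

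For Arc no fall below its 4h level was detected. It held 36.3 and 30.8 CPM in clone 4 and 17.9 and 18.5 CPM in clone 8, and the log2 difference from 4h was 0.22 (95% interval -0.26 to 0.69, adjusted p = 0.496). The clone 4 libraries overlapped between 4h and rev, and both clone 8 libraries were higher in rev. Ier2 held 37.5, 32.0, 41.0 and 38.1 CPM, each below the lowest 4h library, the only one of the 8 genes to lie apart downward (10.8% of all tested genes). Its difference of -0.41 (95% interval -0.77 to -0.05, adjusted p = 0.0814) was not called. Nr4a1 held 2.03, 2.48, 1.97 and 3.22 CPM, and its difference of -0.57 (95% interval -1.12 to -0.03, adjusted p = 0.105) was not called. Ier3 was at 0.490, 0.413, 0.564 and 0.415 CPM, with a log2 difference of -0.93 (95% interval -1.94 to 0.07, adjusted p = 0.155) that was not called.

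Ier5, Btg1 and Btg2 had differences from 4h of 0.01, 0.23 and -0.10, with 95% intervals of -0.57 to 0.60, -0.10 to 0.56 and -0.43 to 0.22. Their levels in rev were 6.52, 5.68, 3.81 and 3.01 CPM for Ier5, 10.4, 11.5, 19.0 and 17.0 CPM for Btg1 and 11.4, 10.9, 20.7 and 21.4 CPM for Btg2. All 3 genes overlapped between 4h and rev.

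Set against 0h, rev differed in 2 of the 8 genes, where 11.2% of all tested genes were called, 6.49% higher and 4.66% lower. Arc was 5.17-fold above 0h (log2 fold change 2.37, SE 0.26, adjusted p = 4.41e-05), with every rev library above every 0h library, as in 14.7% of all tested genes. Btg2 fell by 0.74 (SE 0.16, adjusted p = 0.00397), with its clone 4 libraries at 11.4 and 10.9 CPM against 16.3 at 0h and its clone 8 libraries at 20.7 and 21.4 against 33.6 and 38.4. Both calls held in each of the 7 fits without one library, but Btg2 lost its call without the clone term (log2 fold change -0.87, adjusted p = 0.116). The 6 other genes had log2 differences of -0.26 to 0.28 with intervals that included 0, and the median of all 8 was 0.01 beside 0.02 over all tested genes.

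In order of mean level, Arc stood at 67.7 ± 35.0 CPM at 2h (errors here are SD, n = 4), 25.9 ± 9.14 CPM in rev (n = 4), 24.2 ± 15 CPM at 4h (n = 4) and 4.08 ± 0.0755 CPM at 0h (n = 3). Rev and 4h, which are neighbours in that order, overlapped. Ier2 stood at 136 ± 46.1 CPM at 2h (n = 4), 50.2 ± 7.78 CPM at 4h (n = 4), 43.9 ± 8.75 CPM at 0h (n = 3) and 37.1 ± 3.76 CPM in rev (n = 4), with overlap between 4h and 0h and between 0h and rev. All 4 Ier genes, Btg1, Btg2 and Arc had their highest mean at 2h, and Nr4a1 had it at 4h with 3.69 ± 1.13 CPM (SD, n = 4). Btg2 had its lowest mean in rev (16.1 ± 5.71 CPM, SD, n = 4), close to 4h (17.2 ± 5.24 CPM, SD, n = 4).

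Per kilobase of annotated exon, which allows levels of different genes to be compared, Ier2 was the highest of the 8 in every group, at 28.8 CPM per kb at 0h and 89.4 at 2h. Arc moved from the fifth place at 0h (1.33 CPM per kb) to the second at 2h (22.1), and it was also the second at 4h (7.92) and in rev (8.47). Btg2 was the second at 0h with 10.7 CPM per kb. Ier3 and Nr4a1 took the last places in every group, with Ier3 at 0.455 and Nr4a1 at 0.604 CPM per kb at 0h.

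Clones 4 and 8 differed in 5 of the 8 genes when all groups were fitted together, where 18.5% of all tested genes were called, 10.4% higher and 8.11% lower in clone 8. Ier5 (log2 difference -0.81, SE 0.19, adjusted p = 0.00439), Ier5l (-0.76, SE 0.13, adjusted p = 0.000194) and Arc (-1.09, SE 0.17, adjusted p = 0.000331) were lower in clone 8. Btg1 (0.65, SE 0.11, adjusted p = 0.00034) and Btg2 (0.71, SE 0.11, adjusted p = 0.000122) were higher in clone 8. The antiproliferative pair and the Ier5 pair thus differed between clones in opposite directions. All 5 calls held in each of the 15 fits without one library. Ier2 (-0.30, 95% interval -0.57 to -0.04, adjusted p = 0.102), Ier3 (-0.48, -1.06 to 0.10) and Nr4a1 (-0.22, -0.59 to 0.15) were not called. On total count scaling Btg1 lost its call (adjusted p = 0.059).

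Arc was the one gene of the 8 whose course differed between the clones in the test over all groups (adjusted p = 0.00315, with 3.18% of all tested genes called). Mean Arc was 4.10 CPM in clone 4 and 4.07 CPM in clone 8 at 0h, then 97.4 and 37.9 CPM at 2h, 36.9 and 11.5 CPM at 4h, and 33.5 and 18.2 CPM in rev. The clones were level before induction, and in each later group the clone 8 libraries lay below those of clone 4. In each of these later groups the clones also lay apart for Ier5l, Btg1 and Btg2. The share of all tested genes whose clones lay apart in this way was not computed. The rise in 4h vs 0h was smaller in clone 8 by a log2 difference of -1.67 (SE 0.27, adjusted p = 0.000626, with 3.87% of all tested genes called). For 2h vs 0h the difference was -1.35 (SE 0.26, adjusted p = 0.0285, with 0.230% called), and this call was lost in 4 of the 6 fits without one library, with the largest adjusted p (0.189) without 0h clone 8 replicate 2. The 4h vs 2h step differed by -0.32 (95% interval -0.79 to 0.15, adjusted p = 0.552, with 3.14% of all tested genes called) and the rev vs 4h step by 0.80 (95% interval 0.32 to 1.28, adjusted p = 0.0695, with 2.80% called), neither of them called. In rev vs 0h, where 0.0818% of all tested genes were called, the difference was -0.87 (95% interval -1.41 to -0.33, adjusted p = 0.343). Each clone difference against 0h rests on 1 clone 4 library at 0h, and on total count scaling all of these calls were lost (adjusted p = 0.58 for 4h vs 0h and 0.564 for 2h vs 0h).

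The other 7 genes gave no call in any test of a clone difference in a step. For Btg2 in 2h vs 0h, clone 4 went from 16.3 to 31.3 CPM and clone 8 from 36.0 to 37.2 CPM. That difference of -0.90 (95% interval -1.45 to -0.34) had an adjusted p of 0.41. For Ier5l clone 4 went from 11 to 35.1 CPM and clone 8 from 9.11 to 15.5 CPM, a difference of -0.91 (95% interval -1.61 to -0.21, adjusted p = 0.794).

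**Figure D3:**
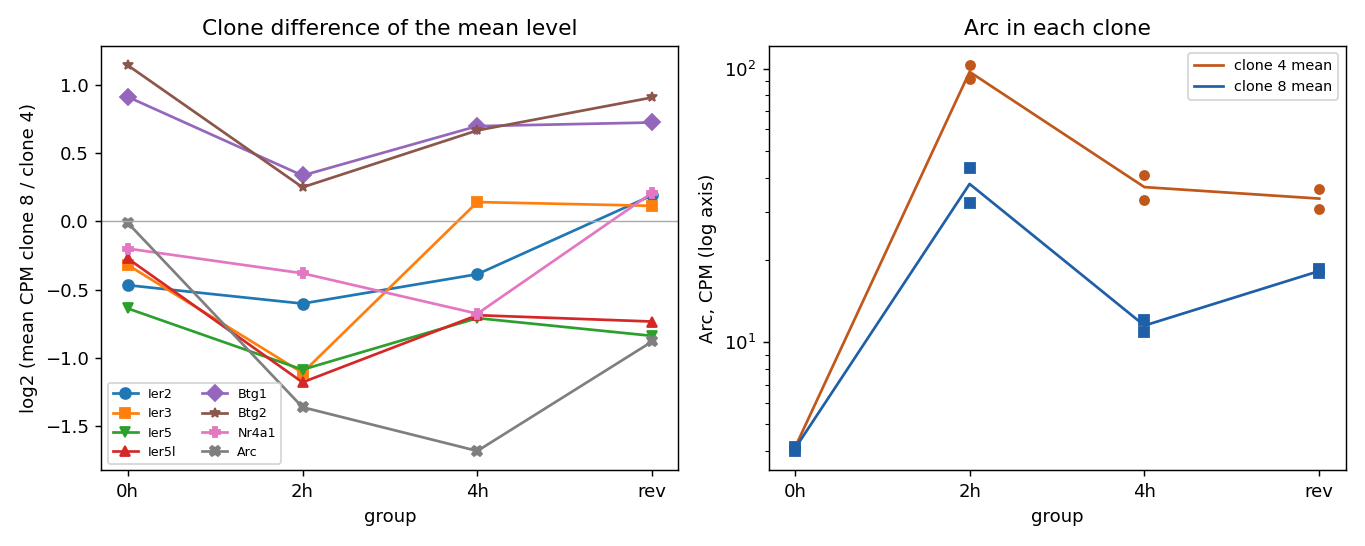
Left, log2 ratio of the mean CPM in clone 8 to that in clone 4 for each gene in each group; right, Arc in every library (CPM, log axis) with the mean of each clone as a line. Btg1 and Btg2 lie above 0 in every group and Ier5 and Ier5l below it, and Arc starts level at 4.10 and 4.07 CPM and then runs lower in clone 8.

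Across the 15 libraries the 8 genes showed unequal likeness to each other. Among the 4 Ier genes the Pearson correlation of log2 CPM was between 0.69 and 0.85, and Btg1 and Btg2 correlated at 0.89. Arc was closest to Ier5l (0.82) and near 0 with Btg1 (0.02) and Btg2 (-0.09). These are descriptions, since the libraries share groups, clones and depth.

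**Figure D4:**
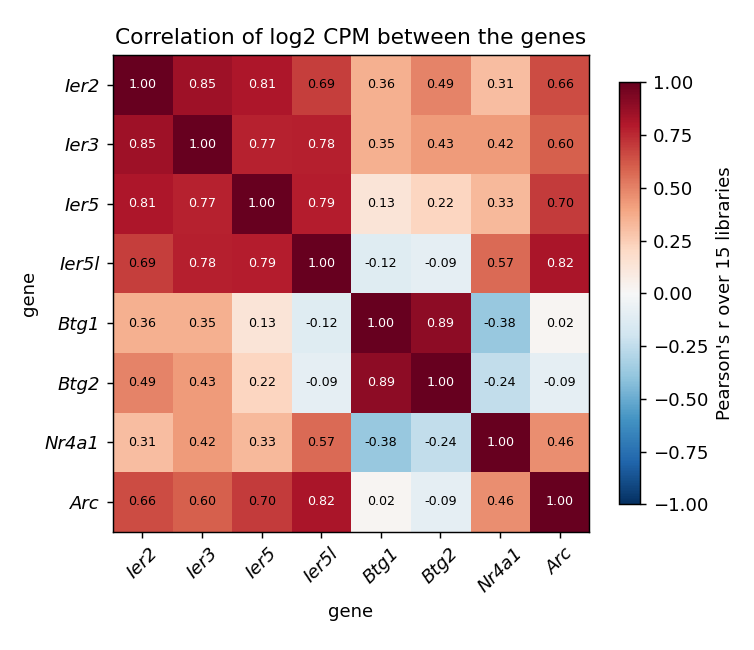
Pearson's r of log2 CPM between each pair of the 8 genes over the 15 libraries, in red above 0 and blue below 0. The Ier genes form a block of 0.69 to 0.85, Btg1 and Btg2 stand at 0.89, and Nr4a1 is at -0.38 with Btg1.

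Of 12274 named genes with a mean of at least 1 CPM, those most like each gene over the 15 libraries were the following. Arc was closest to Klf10 (r = 0.982) and Egr1 (r = 0.965), and Ier2 to Zfp36 (r = 0.932), whose protein promotes decay of AU-rich mRNAs, and Hes1 (r = 0.91), a repressor downstream of Notch. Ier5l was closest to Ccdc97 (r = 0.926) and Csrnp1 (r = 0.917), and Ier5 to Id3 (r = 0.906), an inhibitor of helix-loop-helix factors, and Kin (r = 0.894). Btg2 was closest to Mdm2 (r = 0.953), the ubiquitin ligase of p53, and Arhgap11a (r = 0.931), and Btg1 to Map3k20 (r = 0.895) and Tulp4 (r = 0.894). Nr4a1 was closest to Tut7 (r = 0.861) and Spry1 (r = 0.837), a feedback inhibitor of receptor tyrosine kinase signalling. The scarce Ier3 was closest to Eloa (r = 0.853) and Gm16892 (r = 0.839).

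Of the paralogs, Tob1 and Tob2, antiproliferative relatives of the Btg genes, were well measured. Tob1 rose from 16.2 ± 1.38 CPM (SD, n = 3) before induction to 31.6 ± 5.98 CPM after 2 h (SD, n = 4) with a log2 fold change of 1.00 (SE 0.20, adjusted p = 0.004), and at 4h it was at 15.3 ± 5.32 CPM (SD, n = 4), a log2 fold change of -1.07 from 2h (SE 0.19, adjusted p = 0.00018). Tob2 was not called at 2h (0.19, adjusted p = 0.567), fell by 0.64 from 0h to 4h (SE 0.18, adjusted p = 0.00728) and rose by 0.51 from 4h to rev (SE 0.17, adjusted p = 0.0253). Btg3 (0 to 14 counts) and Nr4a2 (0 to 20 counts) were called in none of the 5 group comparisons. Btg4 (0 to 3 counts) and Nr4a3 (0 to 5 counts) did not pass the filter. Nr4a1 was thus the most counted of the 3 Nr4a genes.

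Of 43 other immediate early genes, among them the AP-1, Egr and Dusp families, 23 were called higher and 1 lower in 2h vs 0h, with a median log2 fold change of 1.26 beside 0.01 over all tested genes, of which 3.98% were called higher and 2.46% lower. In 4h vs 2h 6 were higher and 22 lower (median -0.91 beside -0.01), where 19.7% and 19.2% of all tested genes were. In 4h vs 0h 24 were higher and 7 lower (median 0.85 beside 0.03), against 20.5% and 18.9%. For rev vs 4h the counts were 8 higher and 9 lower (median -0.02 beside 0.02), where 30.8% of all tested genes were called in either direction. For rev vs 0h they were 17 higher and 3 lower (median 0.55 beside 0.02), against 6.49% and 4.66%. That list was chosen with results of these data known. The shares of all tested genes just given are the background for the shorter lists too. SRF and its cofactors, 6 genes, had 1 called higher at 2h and 4 at 4h, both against 0h. Of 11 CCR4-NOT subunits, the partners of the Btg proteins, 1 was called higher at 2h and 5 at 4h, both against 0h, with none lower. The 3 RXR genes, whose proteins pair with Nr4a1, were called in no group comparison, and their median was -0.20 in 2h vs 0h. Of 7 tested PP2A subunits none was called in 2h vs 0h, and 1 was higher and 1 lower in 4h vs 0h.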

How the data were processed

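RNA from 15 samples was depleted of ribosomal RNA and sequenced, per the labels' protocols. The values are raw read counts per Ensembl gene as deposited by the authors. Per the submitters' processing notes, bcl2fastq 2.19.1, STAR 2.5.3a and the build mm10 were used, but the counting tool, its annotation and whether it used strand are not given in the sources used here. Gene names and positions came from GENCODE M21, and promoter sequences from RefSeq.

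Groups and clones came from the sample labels. The counts entered edgeR 4.0.16 (R 4.3.3), where filterByExpr kept genes (minimum count 10, minimum total 15), libraries were scaled by TMM, and a model of group plus clone over all samples was tested with the two-sided quasi-likelihood F test with robust estimation. A gene was called at a Benjamini-Hochberg adjusted p under 0.05 over all tested genes. Clone differences in a step came from a model with a mean for each group in each clone. Correlations used log2 CPM with a prior count of 2. The floor of 3 counts covers counting error only, since reads carried no molecular identifiers. The scripts were tested on simulated data.

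The 8 genes, the gene lists and the tests were chosen with earlier results of these data known. All 8 genes are described, with list members named only as paralogs and the 2 genes most like each of the 8. Replicate numbers were not taken to pair samples across groups in the main fit. Deviations from the means of group and clone correlated at -0.393 to 0.224 over 21 pairs of same-numbered libraries, of which 4 exceeded 0.1. Differently numbered libraries were not set beside these pairs, so the correlations cannot decide whether same-numbered samples were paired. Within groups, libraries varied beyond counting error (chi-square per degree of freedom 5.49 to 252). Alternatives changed the scaling (relative log expression, total count), the filter, the samples, the clone term, the block and the tool (DESeq2 1.42.0), and left out each library in turn.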

Additional observations from a re-analysis of the deposited data

Results flagged for a closer look

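The response of Arc differed between the clones by a test of the difference itself. In 2h vs 0h its log2 fold change was smaller in clone 8 than in clone 4 (difference -1.35, SE 0.26, adjusted p = 0.0285), with both clone 8 libraries at 2h below both clone 4 libraries. In 4h vs 0h the difference was -1.67 (SE 0.27, adjusted p = 0.000626), again with both clone 8 libraries below both of clone 4. At 2h and at 4h the clones also lay apart for Ier5l, Btg1 and Btg2. Over all groups together the test of Arc by clone and group had an adjusted p of 0.00315. These tests of Arc rest on 1 clone 4 library at 0h. The 2h vs 0h clone difference lost its call in 7 of 11 alternatives and the 4h vs 0h clone difference in 1 of 11. On total count scaling neither of them nor the joint test gave a call. In the 24 sets of 4 libraries that could be tested, no library of the 8 genes was flagged as far from the others of its group. Each set pooled both clones, and a clone difference widens its range, so such a library could go unflagged. The 0h group, with 3 libraries, was not tested.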

How the results depend on the processing

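The number of the 8 genes called was 6 for 2h vs 0h, then 4 for 4h vs 0h, 5 for 4h vs 2h, 1 for rev vs 4h, 2 for rev vs 0h and 5 between clones. Of all tested genes 6.45%, 39.4%, 38.9%, 30.8%, 11.2% and 18.5% were called, in the same order. The 6 for 2h vs 0h include Ier3, which passed the filter on low counts only through its 2h libraries. On total count scaling the number of the 8 was 3 in 2h vs 0h, 0 in rev vs 4h and 7 in 4h vs 2h. It was also 0 there for the clone differences in 2h vs 0h and 4h vs 0h and for the joint test of clone by group. Of all 13451 tested genes, 266, 3148, 5356, 2, 91 and 113 were called, in that order. Without the clone term the number of the 8 was 3 for 2h vs 0h, 2 for 4h vs 0h, 0 for rev vs 4h and 1 for rev vs 0h. In that order, 427, 4390, 3137 and 793 of the 13451 tested genes were called. The count for rev vs 4h and for the clone difference in 2h vs 0h was 0 when the mitochondrial genes and the 20 most abundant genes were left out and also with the earlier form of edgeR's quasi-likelihood test, an alternative chosen after seeing the data. All genes called were 3700 and 35 of 13264 without the abundant genes, and 3790 and 35 of 13451 with the earlier form. With no filter beyond 1 count, rev vs 4h and the joint test gave 2 each, where 4134 and 668 of 32611 genes were called. With only the groups compared, rev vs 4h gave 2 of the 7 genes that passed the filter, where 3527 of 11440 were called. Leaving out one library gave 0 to 2 in rev vs 4h, 0 to 1 for the clone difference in 2h vs 0h, 0 to 1 for that in rev vs 4h (0 with all libraries) and 1 to 2 in the joint test. In the fits whose count changed, 3285 to 3972, 2 to 21, 318, and 321 to 470 of all tested genes were called, in that order. Those fits tested 13277 to 14034 genes. With a replicate block, a fit that treats same-numbered libraries as paired, the 5 group comparisons gave 5, 4, 5, 1 and 2 in the order first given. Btg1 in 2h vs 0h was the 1 call lost there (adjusted p = 0.0533). DESeq2 changed 1 of 40 values of single genes, Nr4a1 in 4h vs 0h, and relative log expression scaling changed none of 53.

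Log2 differences that changed sign on total count scaling were -0.58 (Ier2), -0.10 (Ier3), -0.71 (Ier5) and -0.0152 (Nr4a1) in 4h vs 0h, -0.21 (Nr4a1) in 4h vs 2h, 0.28 (Btg2) in rev vs 4h, and -0.27 (Ier5), -0.0572 (Ier5l) and -0.13 (Nr4a1) in rev vs 0h. Of these, Nr4a1 in 4h vs 0h was called before. Ier5 in 4h vs 0h was -0.0112 without the abundant genes and -0.10 without the filter. With one library left out, uncalled values ran from -0.35 to 0.24 (Ier5, 4h vs 0h), -0.24 to 0.34 (Ier5, rev vs 4h), -0.0495 to 0.12 (Ier5, rev vs 0h), -0.14 to 0.0131 (Btg1, rev vs 0h), -0.22 to 0.0123 (Btg2, rev vs 4h) and -0.0859 to 0.30 (Nr4a1, rev vs 0h). The cause of these changes was not tested. Of the values of single genes under all alternatives, 788 kept direction and side of the threshold, 47 lost a call, 12 gained one and 25 changed sign. Depth limits Ier3, with 2 to 5 counts per library at 4h.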
